A study of Mus musculus with 35 samples.

Results

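Srsf2 is the mouse gene for SRSF2, a member of the family of serine- and arginine-rich splicing factors (SR proteins). Its transcript was followed here across iCLIP libraries of the SR proteins SRSF1 to SRSF7 and of NXF1, the export receptor that carries mRNA through the nuclear pore. iCLIP joins protein and RNA in living cells with ultraviolet light and reads where reverse transcription stopped. Each such stop is a tag, given in the deposited files as a strand, a position and a number of cDNAs. The members were all tags on the minus strand of mm9 chromosome 11 between 116711215 and 116714408, the annotated span of Srsf2 (ENSMUSG00000034120.10), which is 1 of 37310 annotated genes. No other gene overlaps this span on the same strand.

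All libraries came from P19 cells, a mouse embryonal carcinoma line that grows in an undifferentiated state. Each line carried 1 protein fused to GFP on a bacterial artificial chromosome, a large genomic clone that brings its own promoter and neighbouring genes, and the untagged gene stayed in place. The lines were clonal and stable, and the tagged protein was recovered with an anti-GFP antibody after irradiation at 254 nm. There were 31 libraries, namely 6 for SRSF7, 5 for SRSF2, 4 each for SRSF1 and SRSF5, and 3 each for SRSF3, SRSF4, SRSF6 and NXF1. A control line made GFP with a nuclear localisation signal, and its 4 libraries were given as 1 pooled file. Nothing in the labels says that replicates were separate clones or cultures, so tests over libraries measure only the spread between these libraries.

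SR proteins bind short exonic and intronic sequences through RNA recognition motifs, and their arginine- and serine-rich tails contact other splicing factors. Several SR protein genes are known to limit their own output by splicing their transcripts into forms that are degraded by nonsense-mediated decay. In Srsf2 these forms arise beyond the stop codon, by inclusion of a cassette exon or removal of an intron from the 3′ UTR. An exon junction far downstream of a stop codon is the feature that marks an mRNA for this decay.

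The gene is 3194 nt long and its coding sequence lies in 2 exons. Coding exon 1 (chr11:116713882-116714243) encodes the RNA recognition motif, and the coding part of exon 2 (chr11:116713342-116713645) ends at a stop codon that occupies the last 3 nt of that range. A coding intron of 236 nt (chr11:116713646-116713881) separates them. Intron 2 follows 7 nt after the stop codon and holds a cassette exon of 104 nt (chr11:116712962-116713065). The last exon of 1061 nt contains an optional intron of 502 nt (chr11:116711668-116712169), spliced out of the decay transcript and of a transcript that retains intron 2. This leaves 106 nt of the last exon before the optional intron (chr11:116712170-116712275) and 453 nt after it (chr11:116711215-116711667).

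The splice sites that create the decay forms are shown because several of the densest tag positions lay beside them. Each sequence is the RNA strand from the mm9 genome, written 5′ to 3′ over 21 nt, with the first or last 2 bases of the intron in capitals.
3′ splice site of the cassette exon, chr11:116713055-116713075: ccctttaaAGctgcggtctcc
5′ splice site of the cassette exon, chr11:116712952-116712972: tattggagcagGTttgtcttt
5′ splice site of the optional intron, chr11:116712160-116712180: ctattaaaaagGTtattttgt
3′ splice site of the optional intron, chr11:116711657-116711677: tgtgcactAGgcgcagttgtg

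The position with the most Srsf2 tags of each protein, summed over its libraries, differed between proteins. The windows below are 21 nt of the same strand and build, and the capital marks the listed position at their centre.
SRSF1, SRSF6 and SRSF7, coding exon 2, chr11:116713337-116713357: agcagtttctTcctaagaaaa
SRSF4, coding exon 2, chr11:116713369-116713389: aagagcccacCcaagtctcca
SRSF2, last exon, chr11:116712190-116712210: catggaagagTccttggaaca
SRSF5, last exon, chr11:116712202-116712222: agtccatcggTccatggaaga
SRSF3, optional intron, chr11:116711853-116711873: aacattgcctTcacttcttaa
NXF1, last exon after the optional intron, chr11:116711484-116711504: tgcacttccaGtcacccgggc
NXF1, optional intron, chr11:116712139-116712159: aacatttgtcTaactttttac
Both NXF1 positions held 4 tags. Other local maxima that are described below are also shown.
SRSF3, 5′ UTR, chr11:116714378-116714398: tgctcaggcgTccgtcaggtt
SRSF2, cassette exon, chr11:116712974-116712994: gggaccagttTctgtgggcgt
SRSF2 replicates 1, 3 and 4, last exon after the optional intron, chr11:116711580-116711600: ttggctgtttCctgttttctc

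Some facts about the libraries bear on every value. The files list only positions that passed the authors' false discovery threshold, so 0 means that nothing was listed, and totals of listed tags (13038 to 4459523 per library, median 237488) are not sequencing depth. The track headers of the libraries labelled SRSF2 replicates 2 and 5 name mSRSF1 as the protein, whereas those of replicates 1, 3 and 4 name mSRSF2. The SRSF2 comparisons of level and of share beyond the stop codon are therefore also given without these 2 libraries. Other SRSF2 means and tests use all 5 libraries unless stated. File headers carry a date in 2013 for all libraries of SRSF2, SRSF5 and SRSF6 and for SRSF7 replicates 1 to 3, and in 2014 for the others. Header date and protein therefore cannot be told apart except for SRSF7, which has libraries of both dates. A comparison within a single date takes in only the proteins with libraries of that date. Markers of undifferentiated P19 cells reached a summed median of 957 CPM over 6 genes, led by Dnmt3b and Lin28a, with Dppa5a listed in 1 library, against 1.81 CPM for 5 markers of differentiated cells, of which Afp was listed in no library.

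Srsf2 was tagged in 29 of 31 libraries, with 17432 tags in all. Levels are given as CPM, tags per 1000000 listed tags of the library. In SRSF2 replicates 1 to 5 the level was 1772, 1165, 337, 1998 and 1052 CPM. For SRSF4 it was 536, 982 and 891 CPM. For SRSF6 it was 712, 846 and 739 CPM. These 3 proteins had the highest means, and within them SRSF2 replicate 3 fell below every library of SRSF4 and SRSF6.

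SRSF5 ranged widely, at 248, 604, 251 and 1168 CPM. SRSF3 had 572, 486 and 479 CPM. SRSF1 had 485, 495 and 127 CPM and 1 further library, of 14900 tags in all, with no Srsf2 tag. SRSF7 spanned 0 to 725 CPM with a median of 259 over 6 libraries. NXF1 was lowest, at 232, 28.5 and 36.8 CPM, which stand for 55, 4 and 4 tags.

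**Figure D1:**
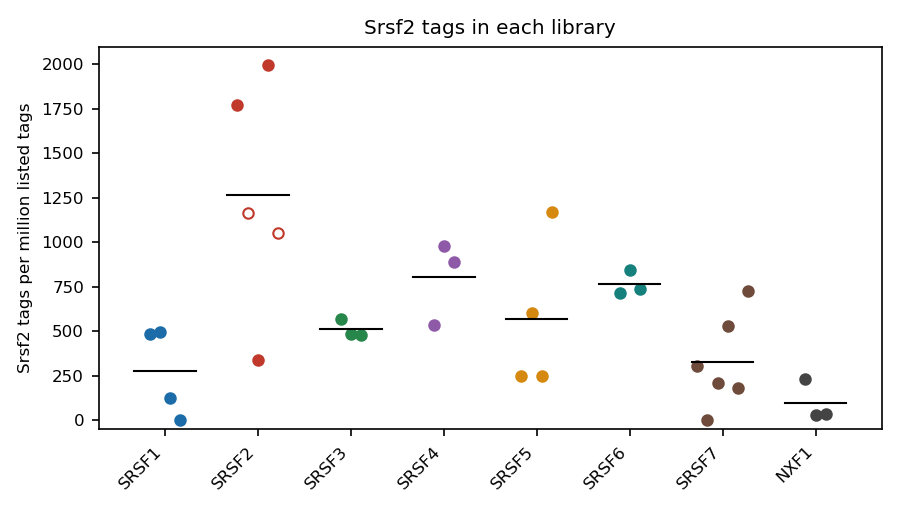
Srsf2 tags in CPM (vertical axis) in each library (points) by protein, with the mean of each protein as a line. Open circles are the libraries labelled SRSF2 replicates 2 and 5, whose headers name mSRSF1. The 3 NXF1 libraries lie at 28.5 to 232 CPM, and the 5 SRSF2 libraries span 337 to 1998 CPM.

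By mean the order was SRSF2 (1265 ± 654 CPM, SD, n = 5), SRSF4 (803 ± 236, n = 3), SRSF6 (766 ± 70.5, n = 3), SRSF5 (568 ± 434, n = 4), SRSF3 (512 ± 51.6, n = 3), SRSF7 (326 ± 261, n = 6), SRSF1 (277 ± 252, n = 4) and NXF1 (99.0 ± 115, n = 3). SRSF4 and SRSF6 differed by less than the SD of SRSF4, SRSF5 and SRSF3 by less than the SD of SRSF5, and SRSF7 and SRSF1 by less than either SD. Within a library, Srsf2 ranked from 29th to 427th by tags among the genes of the SR protein libraries that held it, and 386th, 1147th and 849th with NXF1. It was thus among the more heavily tagged transcripts with SRSF2, where its ranks were 32, 42, 196, 29 and 52.

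Each protein was then compared across all genes with limma voom, the 7 SR proteins each against the other 6 and NXF1 against the 7. Srsf2 passed an adjusted p under 0.05 in 1 of these 8 comparisons. Of 6009 genes tested, the percentage called was 2.58 for SRSF1, 0.466 for SRSF2, 10.9 for SRSF3, 0.416 for SRSF4, 22.2 for SRSF5, 4.91 for SRSF6, 2.98 for SRSF7 and 4.83 for NXF1. The one call was NXF1, and it did not hold under other scalings.

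With NXF1 the log2 difference of Srsf2 was −2.88 ± 0.82 (SE, limma adjusted p = 0.0368), beside a median of −1.87 over all genes in that comparison. All 3 NXF1 libraries lay below the median SR protein library, while SR protein libraries reached down to 0. Trimmed-mean scaling raised the median of all genes by 0.79 and left Srsf2 at −1.99 (adjusted p = 0.268), and the call also ended without NXF1 replicate 2 (−2.34, adjusted p = 0.261) or NXF1 replicate 3 (−2.50, adjusted p = 0.226). Within the libraries dated 2014, against SRSF1, SRSF3, SRSF4 and SRSF7, it was −2.76 ± 0.76 (limma adjusted p = 0.0193). The median of all genes there was −2.28, and of 4614 genes 1069 were called lower and 216 higher.

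For SRSF2 the log2 difference was 1.41 ± 0.68 (limma adjusted p = 0.561), and without the libraries labelled replicates 2 and 5 the adjusted p was 0.525. SRSF7 gave −1.52 ± 0.63 (limma adjusted p = 0.181). Its libraries dated 2013 gave −3.75 ± 0.89 against SRSF2, SRSF5 and SRSF6 (limma adjusted p = 0.0393). Those dated 2014 gave 0.02 ± 0.73 against SRSF1, SRSF3 and SRSF4 (limma adjusted p = 0.990). The proteins compared differ between the dates, so these values do not measure a change in SRSF7 alone. The 2013 libraries held 4, 0 and 9 Srsf2 tags and replicates 4 to 6 held 2361, 3 and 800. SRSF1 gave −1.61 ± 0.77 (limma adjusted p = 0.266), and SRSF3, SRSF4, SRSF5 and SRSF6 lay between −0.02 and 0.85.

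The SRSF2 line carries extra copies of Srsf2 on its artificial chromosome, together with the genes around it. Mettl23 (named 1110005A03Rik in the annotation used) spans all of Srsf2 on the opposite strand, Mfsd11 overlaps its 5′ part on that strand, and Jmjd6, which encodes a hydroxylase of splicing factors, lies close by. Tags on both strands within 100000 nt of Srsf2 but outside it reached 2954, 2055 and 7696 CPM in SRSF2 replicates 1, 3 and 4. In those 3 libraries Mfsd11 had 435, 539 and 2382 CPM, Jmjd6 1026, 101 and 2866 CPM, and Mettl23 777, 270 and 1692 CPM. Over the other 28 libraries the surrounding tags ranged from 0 to 158 CPM, Mfsd11 reached 36.4 CPM, Jmjd6 122 CPM and Mettl23 23.7 CPM.

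The libraries labelled SRSF2 replicates 2 and 5 fell within that range, at 93.7 and 125 CPM around the gene, although their Srsf2 levels were 1165 and 1052 CPM. Srsf2 held 0.600, 0.164 and 0.260 times as many tags as its surroundings in replicates 1, 3 and 4, and 12.4 and 8.43 times as many in replicates 2 and 5. In all other libraries with tags outside the gene, apart from SRSF7 replicate 2, which had no Srsf2 tag, the ratio was 2 or more. The surrounding tags of replicates 1, 3 and 4 extended up to 65213 nt beyond the 3′ end of Srsf2 and 87967 nt beyond its 5′ end. How much of the Srsf2 level in these 3 libraries came from the extra copies was not tested.

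**Figure D2:**
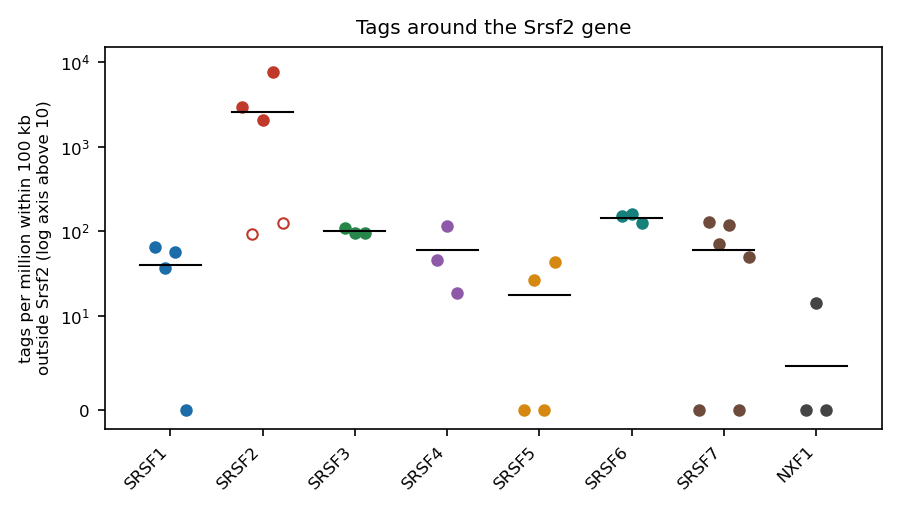
Tags in CPM within 100000 nt outside Srsf2, both strands together, in each library (points) by protein, with means as lines. The vertical axis is logarithmic above 10 and linear below. SRSF2 replicates 1, 3 and 4 (filled) lie at 2055 to 7696 CPM, and no other library is above 158 CPM, including the 2 open circles, libraries labelled SRSF2 replicates 2 and 5.

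Along the transcript, tags fell into a few blocks that the proteins shared. Over all libraries 55.5% of Srsf2 tags lay in the last exon, 22.1% in the coding part of exon 2, 20.6% in intron 2 with its cassette exon, and 1.53% in the 5′ UTR. These parts make up 33.2%, 9.52%, 33.2% and 5.17% of the gene's length. Coding exon 1, with 11.3% of the length, held 30 tags in 3 libraries, and the coding intron held none in any of the 31 libraries. Every 31-nt stretch of coding exon 1 and of the coding intron occurs once in the mm9 genome, so exact repeats were not present there.

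The tags of coding exon 1 were 18 and 10 in SRSF3 replicates 2 and 3 and 2 in SRSF7 replicate 4. Intron 2 was tagged in 22 libraries and its cassette exon, which makes up 3.26% of the gene, held 6.22% of all Srsf2 tags. Exact repeats do occur further down. A stretch of 226 nt in the last exon (chr11:116711258-116711483) is made of 31-nt words found at 2 places in the genome and held 14 tags over all libraries, and 56 nt of intron 2 (chr11:116712498-116712553) hold a word found 4597 times and carried 121 tags. How reads from such words were aligned is not stated in the sources used here.

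**Figure D3:**
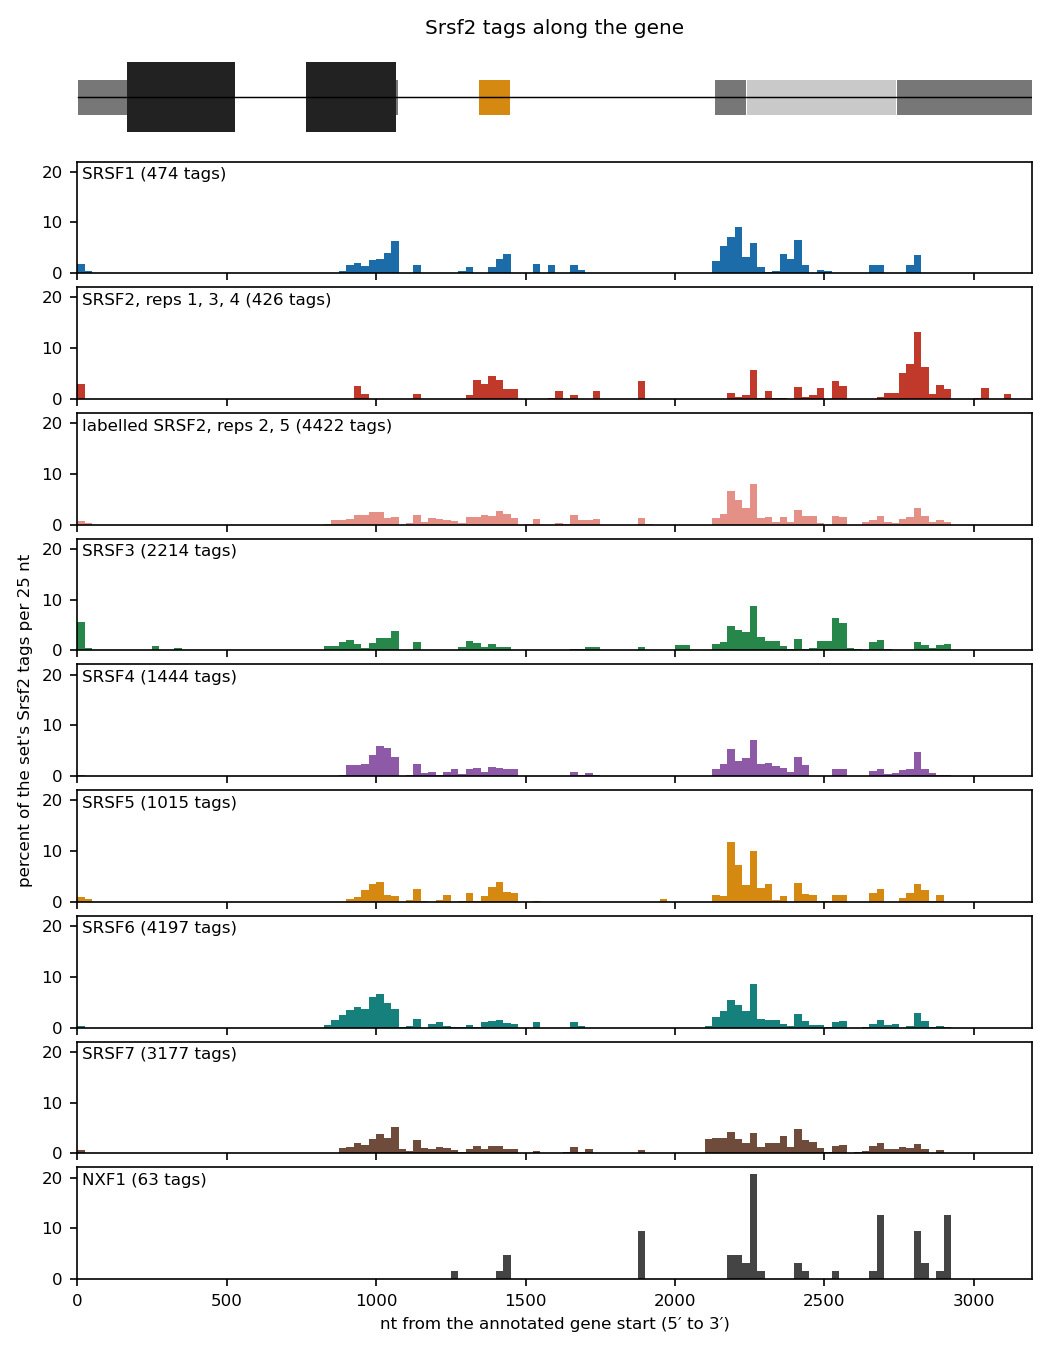
Percent of the Srsf2 tags of each set of libraries in bins of 25 nt (vertical axes) against distance from the annotated gene start (horizontal axis). The drawing on top shows coding sequence in black, untranslated exon in grey, the cassette exon in orange and the optional intron in light grey. Tags are concentrated at the end of the coding sequence, over the cassette exon and around the start of the optional intron, whereas SRSF2 replicates 1, 3 and 4 have their highest bin, with 13.1% of tags, after the optional intron.

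The window of 50 nt to either side of the 5′ splice site of the optional intron is 3.16% of the gene. It held 23.6% of Srsf2 tags with SRSF1, 22.1% with SRSF3, 18.8% with SRSF4, 32.2% with SRSF5, 21.6% with SRSF6, 12.3% with SRSF7 and 34.9% of the 63 tags with NXF1. The libraries labelled SRSF2 replicates 2 and 5 held 22.3% of their tags there. In SRSF2 replicates 1, 3 and 4 the share was 8.22%, below each of these. The 3′ splice site of the same intron had 11.97% of their tags within 50 nt, 3.505% of those of the libraries labelled replicates 2 and 5, and 0.632% to 3.81% for the other SR proteins.

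Around the cassette exon the difference was smaller. Within 50 nt of its 3′ splice site lay 10.8% of the tags of SRSF2 replicates 1, 3 and 4, 6.51% of those of the libraries labelled replicates 2 and 5, and 2.72% to 5.71% for the other SR proteins. Within 50 nt of its 5′ splice site these shares were 8.69%, 6.63% and 1.76% to 7.88%. The top position inside the cassette exon held 39 SRSF2 tags and lies 22 nt before the 5′ splice site printed above. Most of these tags came from the libraries labelled replicates 2 and 5. The stretch around it, 116712972 to 116712985, held 112 of their tags and 9 of replicates 1, 3 and 4.

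The share of Srsf2 tags beyond the stop codon had the highest mean among the SR proteins with SRSF2. It was 100%, 85.2%, 100%, 92.2% and 83.6% in replicates 1 to 5, with means of 92.2% ± 7.82 (SD, n = 5) against 69.7% ± 12.6 for 18 libraries of the other 6 SR proteins with at least 10 Srsf2 tags. The difference of 22.5 percentage points had p = 0.00119 in an exact two-sided permutation test over libraries and an adjusted p = 0.00832 over 7 comparisons. The groups overlapped, since SRSF5 replicate 4 reached 88.7%. The values of 100% in SRSF2 replicates 1 and 3 rest on 57 and 10 tags. SRSF7 replicates 1, 3 and 5, left out with 4, 9 and 3 tags, also had 100%. The difference was 27.7 points without the libraries labelled replicates 2 and 5 (exact permutation, adjusted p = 0.0105) and 26.2 points within the libraries dated 2013 (adjusted p = 0.0227).

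This result used the transcript model with an annotated start and stop codon, a choice made after the annotation had been seen. A second model of Srsf2, the one the plan had named, has a longer coding sequence but no annotated start codon. Its stop codon lies in the last exon. Counted beyond that later stop codon, the share was 61.0% ± 24.8 with SRSF2 (SD, n = 5) and 38.6% ± 14.5 with the others, a difference of 22.4 points that did not pass (exact permutation, adjusted p = 0.106). No other SR protein differed in this share under the first model. The difference in points was −14.1 for SRSF4, −13.4 for SRSF6, −7.56 for SRSF5, −3.17 for SRSF3, 1.49 for SRSF7 and 5.47 for SRSF1 (exact permutation, adjusted p between 0.354 and 0.917). A test on the coding intron could not be made, because its share was 0 in every library.

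**Figure D4:**
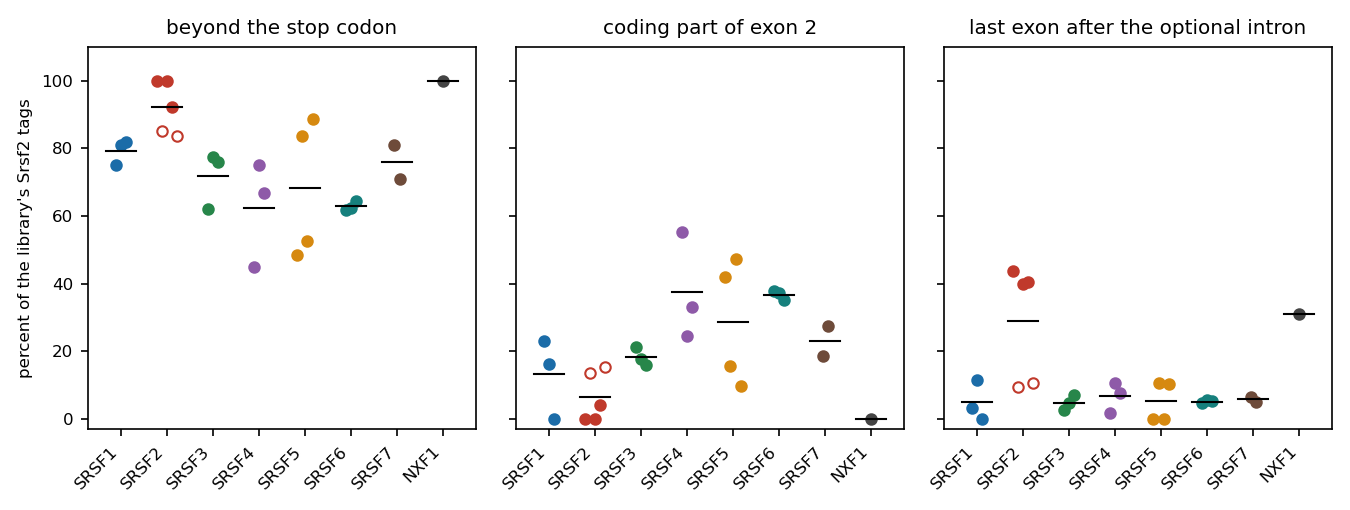
Percent of each library's Srsf2 tags (vertical axes) beyond the stop codon, in the coding part of exon 2 and in the last exon after the optional intron, for libraries with at least 10 Srsf2 tags (points) by protein, with means as lines. Open circles are the libraries labelled SRSF2 replicates 2 and 5. In the last panel SRSF2 replicates 1, 3 and 4 lie at 40.0% to 43.9%, while the other SR protein libraries reach at most 11.5% and the NXF1 library is at 30.9%.

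Within the region beyond the stop codon, SRSF2 replicates 1, 3 and 4 were distributed unlike the other SR protein libraries. After the optional intron lay 25 of 57, 4 of 10 and 145 of 359 tags, or 43.9%, 40.0% and 40.4% (exact 95% intervals 30.7% to 57.6%, 12.2% to 73.8% and 35.3% to 45.7%, which cover counting error only). The other 20 SR protein libraries with at least 10 tags had 0% to 11.5%, with a median of 5.42%, and the libraries labelled SRSF2 replicates 2 and 5 were among them at 9.34% and 10.7%. NXF1 replicate 1 was nearer to replicates 1, 3 and 4, at 30.9% of 55 tags (19.1% to 44.8%). The 106 nt just before the optional intron showed the reverse order. There SRSF2 replicates 1, 3 and 4 had 8.77%, 0% and 0.557% of their Srsf2 tags, and the other 20 had 9.09% to 27.0%. NXF1 replicate 1 had 10.9% there. These shares were picked after their values had been seen and carry no test.

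Coding exon 2 held 0, 0 and 15 tags in SRSF2 replicates 1, 3 and 4, or 0%, 0% and 4.18% of their Srsf2 tags. The libraries labelled replicates 2 and 5 had 295 and 346 tags there, 13.6% and 15.3%. The 20 SR protein libraries other than replicates 1, 3 and 4, among them those labelled replicates 2 and 5, ranged from 0% to 55.2%. Replicates 1, 3 and 4 lay within that range only by the 0% of SRSF1 replicate 3, with 11 Srsf2 tags. The next lowest was 9.73%, in SRSF5 replicate 4. Whether the share after the optional intron follows the extra copies, the header name or the smaller totals of replicates 1, 3 and 4 was not tested.

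SRSF6 was the most even on coding exon 2, which encodes the arginine- and serine-rich tail of SRSF2. Its 3 libraries had 37.8%, 37.3% and 35.3% of their Srsf2 tags there, from 625, 364 and 552 tags. SRSF4 had 55.2%, 24.4% and 33.1%, the first from 32 of 58 tags (exact 95% interval 41.5% to 68.3%). SRSF5 had 41.9%, 15.6%, 47.4% and 9.73%, and its 2 high values came from libraries with 31 and 19 Srsf2 tags. SRSF1 reached 23.2%, SRSF3 21.4% and SRSF7 27.5%.

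Per length, coding exon 2 carried 926 ± 96.4 CPM per kb with SRSF6 and 911 ± 105 with SRSF4 (SD, n = 3 each), and 354 ± 35.9 with SRSF5 (n = 4). SRSF3 had 311 ± 80.0 (n = 3) and SRSF2 265 ± 263 (n = 5). In the test across all gene parts no SR protein was called on the Srsf2 coding sequence. The log2 difference was 1.74 ± 0.73 for SRSF6 (limma adjusted p = 0.101) and 1.71 ± 0.76 for SRSF4 (limma adjusted p = 0.387). Within the libraries dated 2013, against SRSF2, SRSF5 and SRSF7, that of SRSF6 was 2.47 ± 0.72 (limma adjusted p = 0.0194). The median of all gene parts there was 1.61, and of 5203 parts 1299 were called higher and 156 lower.

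Of 7221 gene parts tested, the percentage called was 3.81 for SRSF1, 1.29 for SRSF2, 20.6 for SRSF3, 1.18 for SRSF4, 22.1 for SRSF5, 11.2 for SRSF6, 2.67 for SRSF7 and 2.33 for NXF1. The Srsf2 coding sequence and the part beyond the stop codon entered this test, and 1 of their 16 comparisons was called. The 5′ UTR had too few tags and the coding intron none. Beyond the stop codon the log2 difference was 1.72 ± 0.67 for SRSF2 (limma adjusted p = 0.280) and −2.48 ± 0.83 for NXF1 (limma adjusted p = 0.106). The call was the coding sequence with NXF1 (limma adjusted p = 0.0410), where none of the 3 NXF1 libraries listed a tag, beside 118 ± 103 CPM in 28 SR protein libraries. It ended with trimmed-mean scaling (adjusted p = 0.0718), without any 1 NXF1 library (adjusted p from 0.198 to 0.341), without any 1 library of SRSF3 or SRSF6 or SRSF4 replicate 2 (adjusted p from 0.0508 to 0.0565) and with the second transcript model (adjusted p = 0.0555).

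In NXF1 replicate 1 all 55 Srsf2 tags lay beyond the stop codon (exact 95% interval 93.5% to 100%), with 25 in the optional intron and 17 after it, 30.9% (19.1% to 44.8%). Replicates 2 and 3 had 4 tags each, all in the cassette exon and all in the optional intron, respectively. The authors' pooled NXF1 file, thresholded on the sum of libraries, listed more. It had 158 tags on Srsf2, of which 93.0% lay beyond the stop codon, 31.6% after the optional intron, 5.06% in coding exon 2 and 1.90% in the 5′ UTR. In the pooled files of the SR proteins, of which that of SRSF7 lists 966 Srsf2 tags and its replicate 4 alone 2361, the share after the optional intron was 5.31% to 12.3%. The pooled control file held no Srsf2 tag among its 21880 tags, where 3 tags would be 137 CPM.

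In the 5′ UTR SRSF3 had 39, 32 and 66 tags, 16.7%, 3.06% and 7.07% of its Srsf2 tags, or 291 ± 255 CPM per kb (SD, n = 3). The spread was wide, and no test was made of this part. SRSF2 had 118 ± 183 CPM per kb there (n = 5), with replicate 4 at 438, SRSF5 70.9 ± 67.9 and SRSF1 66.2 ± 57.8 (n = 4 each), SRSF6 13.5 ± 2.68 (n = 3), SRSF7 13.5 ± 26.4 (n = 6) and SRSF4 6.38 ± 11.05 (n = 3). By share, SRSF1 replicate 3 was above every SRSF3 library, at 18.2% of 11 tags. The top SRSF3 position in the 5′ UTR, 21 nt from the annotated gene start, held 42 tags and was listed in all 3 libraries.

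In the optional intron SRSF3 had 43.6%, 40.2% and 44.0% of its Srsf2 tags. The libraries of SRSF6 had 26.0%, 26.8% and 30.1% there, those of SRSF4 25.9%, 30.8% and 34.5%, and SRSF7 replicates 4 and 6 had 35.2% and 32.4%. SRSF1 spanned 25.5%, 34.4% and 72.7%, SRSF5 0% to 34.1%, SRSF2 19.3% to 60%, and NXF1 replicate 1 had 45.5%, so the SRSF3 values lay within the range of the others. The 72.7% rests on 8 of 11 tags (SRSF1 replicate 3) and the 60% on 6 of 10 (SRSF2 replicate 3). The 45.5% rests on 25 of 55 tags. The leading SRSF3 positions, at 116711863 with 53 tags and at 116711858 with 46, lie 196 and 191 nt before the 3′ splice site of the optional intron. SRSF3 had 2.99%, 17.5% and 13.0% of its tags in intron 2.

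Tags of at least 1 protein were listed at 1479 of the 3194 positions of the gene, those of all 7 SR proteins at 104, and those of all 8 proteins at 17. The position 116713347, which is 3 nt before the stop codon, led for SRSF1 with 13 tags, for SRSF6 with 63 and for SRSF7 with 70, and held 38 tags with SRSF3 and 18 with SRSF4. SRSF4 led at 116713379 with 23 tags, 35 nt before the stop codon. SRSF2 and SRSF5 had the same pair of leading positions, 116712200 and 116712212, which lie 30 and 42 nt before the optional intron, with 72 and 63 tags for SRSF2 and 21 and 28 for SRSF5.

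All 72 SRSF2 tags at 116712200 came from the libraries labelled replicates 2 and 5. In replicates 1, 3 and 4 the leading position was 116711590 with 13 tags, 77 nt into the part of the last exon that follows the optional intron. Of the 47 NXF1 positions, 93.6% were also listed for SRSF2, which had 1069 positions, and 48.9% for SRSF1, which had 282. These shares follow the number of positions listed, so they do not rank the proteins.

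The authors' cluster files joined neighbouring tags into intervals, and Srsf2 held 14 clusters with SRSF1, 14 with SRSF2, 13 with SRSF3, 14 with SRSF4, 17 with SRSF5, 14 with SRSF6, 11 with SRSF7, 17 with NXF1 and 0 with the control. The files for SRSF2, SRSF3 and SRSF6 are each of 1 library, and that for SRSF2 is the library labelled replicate 2. Clusters of all 8 proteins coincided in 10 stretches, of 176 nt together. They comprised 2 stretches in the cassette exon, 1 in coding exon 2, 2 just before the optional intron, 4 within it and 1 after it. This 5.51% of the gene held 24.6% of SRSF7 tags, 27.3% of SRSF3 tags and 33.7% of both SRSF2 and SRSF4 tags. It also held 34.4% of SRSF6 tags, 37.6% of SRSF1 tags, 46.3% of SRSF5 tags and 68.3% of NXF1 tags. The clusters were made from tags of these same libraries, so shares above 5.51% follow from how the stretches were chosen. NXF1 clusters cover the least, 318 nt, and so limit the shared stretches most.

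Among these shared stretches, 116712129 to 116712160, just inside the optional intron, had 438 SRSF2, 429 SRSF6, 242 SRSF3, 156 SRSF7, 127 SRSF4, 125 SRSF5, 37 SRSF1 and 16 NXF1 tags. The stretch in coding exon 2, from 116713402 to 116713426, held 324 SRSF6 tags, 138 of SRSF2, all from the libraries labelled replicates 2 and 5, and none of NXF1. NXF1 clusters were short, at most 38 nt, and overlapped 7 of 14 SRSF1, 8 of 14 SRSF2 and 7 of 11 SRSF7 clusters.

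Motifs that the proteins are known to favour were counted on the RNA strand in 21-nt windows around each tag. They were also counted in the 1839 windows that lie wholly inside the exons of the coding transcript, without the cassette exon, and in all 3194 windows of the gene. CNTC, a pyrimidine-rich motif of SRSF3, was in the windows of 37.4% of SRSF3 tags (34.9% to 47.9% by library) and of 27.0% of exonic and 23.7% of all windows. For the other SR proteins the share of tags was 22.1% to 27.7%. Both SRSF3 windows printed above, in the optional intron and in the 5′ UTR, hold it, as do those of SRSF1, SRSF5, SRSF6 and SRSF7 and the first of NXF1. Single SRSF5 libraries reached 47.4%.

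GGNG and CCNG, motifs of SRSF2, can overlap each other. CCNG was near 22.5% of SRSF2 tags, beside 28.8% of exonic and 27.6% of all windows. The share was 37.6% in replicates 1, 3 and 4 and 21.1% in the libraries labelled replicates 2 and 5. Replicate 4 held 359 of the 426 tags of replicates 1, 3 and 4, so it weighs most in their share. By library the SRSF2 share had a median of 22.1% and reached 40.1%. For the other proteins CCNG was near 17.1% (SRSF1) to 30.2% (NXF1, 63 tags) of tags. GGNG was near 12.5% of SRSF2 tags, in 29.7% of exonic and in 27.6% of all windows, and for the other proteins it was near 6.35% to 14.98%. GGAGA, a purine-rich motif of SRSF1 and SRSF7, is in 0.924% of exonic and 0.532% of all windows and was near no tag of any protein. A match is a description of these letters and not of binding.

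The other SR protein genes formed a list, and several genes of this family are known to limit their own output through nonsense-mediated decay. Of 12 on the list, 11 passed the filter, and none was called higher or lower with SRSF2, where 0.466% of all genes were called (median log2 difference −0.40, all genes 0.09). Srsf5 was higher at an unadjusted p under 0.05 (1.86 ± 0.90, limma adjusted p = 0.561) and Srsf7 lower (−1.49 ± 0.59, limma adjusted p = 0.377). Srsf7 averaged 342 CPM with SRSF2 and 9612 ± 18579 CPM (SD) over the 23 other SR protein libraries. Each SR protein line carries extra copies of the gene of its own tagged protein. How much of these differences came from such copies was not tested. With NXF1 none was called either, at a background of 4.83%, and 7 were lower at an unadjusted p under 0.05 (median −2.30, all genes −1.87). In libraries of at least 50000 tags 8 were called lower with NXF1, where 1682 of 5303 genes were called lower. Within the libraries dated 2014, 4 were called lower with NXF1, where 1069 of 4614 genes were called lower. Srsf5 was called higher with SRSF2 in libraries of at least 50000 tags, where 2 of 5303 genes were called higher. Srsf7 had a positive difference with NXF1, 0.71 ± 0.75 (limma adjusted p = 0.433). Its mean CPM went the other way, at 1634 ± 1864 with NXF1 and 7957 ± 17156 (SD) over 28 SR protein libraries. Srsf7 was called higher with totals over protein-coding genes, where 476 of 6009 genes were called higher.

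Of 10 genes of the nonsense-mediated decay machinery, 7 passed the filter. With SRSF2 none was called and Upf2 was lower at an unadjusted p under 0.05, where the list median was 0.16. With NXF1 2 of 7 were lower and none higher, where 4.83% of all genes were called (median −3.37, all genes −1.87). Among them was Smg1, the kinase that phosphorylates UPF1 (−3.31 ± 0.96, limma adjusted p = 0.0391). The count fell to 0 with trimmed-mean scaling, median-ratio scaling, no filter and limma-trend, and without any 1 NXF1 library. It was 1 with totals over protein-coding genes. Within the libraries dated 2014 it was 4, where 1069 of 4614 genes were called lower. With the replicate block it was also 4, where 331 of 6009 genes were called lower. In libraries of at least 50000 tags it was 7, where 1682 of 5303 genes were called lower.

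Over the 31 libraries the genes whose log2(CPM + 1) went most closely with Srsf2 were 1500012F01Rik (Spearman 0.87), Usp19, a deubiquitinase (0.87), Gm16157 (0.83), Ddx17, an RNA helicase (0.82), and Irf3, an interferon regulatory factor (0.82). The median over 6009 genes was 0.37. All libraries share proteins and depth classes, and the Srsf2 level itself had a Spearman correlation of 0.53 with the total of listed tags.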

How the data were processed

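The deposited values are signed cDNA counts per position (unit "other", the sign being the strand). Per the file headers the authors kept positions with a false discovery rate under 0.05 over 100 permutations in a neighbourhood of 15 nt, separately by region, on mm9 with Ensembl 59, and the headers of pooled tag files name sums of libraries. The SRSF7 pooled file holds fewer tags (1449645) than SRSF7 replicate 4 alone (4459523), so it does not hold all tags of its libraries. The submitters' processing notes name CASAVA 1.4, and no source used here names an aligner. Tags were assigned by strand to genes and gene parts of the NCBIM37 annotation of Ensembl 65. Transcripts with annotated start and stop codons and no intron under 30 nt were used, a choice made after the annotation had been seen; the plan had named the longest coding sequence, given as an alternative. Genes with at least 42.1 CPM in 3 libraries and 15 tags were tested with limma 3.58.1 (voom, R 4.3.3) on all 31 libraries, with group as the only term, library size the total of listed tags, and Benjamini-Hochberg adjustment. Shares were compared by exact permutation over libraries with at least 10 Srsf2 tags. The fits were tested on simulated data. No 2 libraries of a protein agreed within sampling noise (chi-square per gene at least 7.23 in 49 pairs). The gene and the lists were chosen with earlier results of these data known. Named genes were Srsf2, list members that passed, its 3 neighbours and the 5 genes with the highest Spearman correlation; a few uncalled members were named after their values were seen. The values of 1 list member are not reported here. Alternatives were other scalings, filters, libraries and models.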

Additional observations from a re-analysis of the deposited data

Results flagged for a closer look

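The share of Srsf2 tags in the 5′ UTR was 9.68% in SRSF5 replicate 1, and the next of the 4 SRSF5 libraries was at 1.54%, so the gap was a large part of the range (0.841). It rests on 3 of 31 tags (exact 95% interval 2.04% to 25.8%), and such a gap is found in about 1 in 20 groups by chance alone.

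On the strand opposite to Srsf2, within the span of the gene, SRSF2 replicate 4 had 80 tags, data that enter no comparison above. No other library had any. Mettl23 and, in part, Mfsd11 run across Srsf2 on that strand and held 1692 and 2382 CPM in the same library.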

How the results depend on the processing

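Of 1266 recomputed values 1171 kept their direction and call, 59 changed sign, 23 lost a call, 5 gained one and 8 moved away from 0. The cause of a change was not tested unless stated.

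For the level of Srsf2 (log2 difference), SRSF3 turned to −0.54 with totals over protein-coding genes and −0.19 in libraries of at least 50000 tags. SRSF5 turned to 1.07 with trimmed-mean scaling, 1.07 with coding totals, 1.11 with median-ratio scaling, 0.17 with limma-trend, 0.46 within 2013 and 0.0061 with the replicate block. SRSF7 was −3.75 within 2013 (now called) and 0.019 within 2014. The NXF1 call ended at −1.99 with trimmed-mean scaling, −1.60 with coding totals, −1.67 with median-ratio scaling, −2.80 with no filter and −2.66 with limma-trend.

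Beyond the stop codon, SRSF3 turned to −0.61 with coding totals and −0.19 in libraries of at least 50000 tags. SRSF5 turned to 0.67 with trimmed-mean scaling, 0.82 with coding totals, 0.82 with median-ratio scaling and 0.17 within 2013. SRSF6 was −0.25 with coding totals and SRSF7 0.20 within 2014. NXF1 became called at −2.67 in libraries of at least 50000 tags and −2.33 within 2014. The medians of all gene parts in these fits were −2.05 and −2.34, and 1327 of 6346 and 379 of 5228 parts were called lower.

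For the coding sequence, SRSF2 turned to 0.31 and SRSF5 to −0.11 in libraries of at least 50000 tags. SRSF3 turned to 0.27 with trimmed-mean scaling, 0.31 with median-ratio scaling, 0.11 with no filter, 0.80 with limma-trend, 0.20 with the replicate block and 0.10 without the libraries labelled SRSF2 replicates 2 and 5. SRSF6 became called within 2013 at 2.47, and SRSF7 was 0.11 within 2014. The NXF1 call ended at −4.73 with trimmed-mean scaling, −4.06 with median-ratio scaling, −4.90 with no filter, −4.62 with limma-trend and −3.81 with the longest coding sequence of any model.

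That model was the one the plan had named, and it became the alternative after the annotation was seen. It gave differences in the share beyond the stop codon of 22.4 points for SRSF2, which lost its call, 4.74 for SRSF3 and −4.12 for SRSF7. Its coding introns hold tags, with differences of −2.53 points for SRSF1, 2.38 for SRSF2, −5.48 for SRSF3, −1.73 for SRSF4, −2.66 for SRSF5, 0.553 for SRSF6, 12.8 for SRSF7 and −10.8 for NXF1.

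Leaving out 1 library at a time, the level ranged from −0.080 to 0.19 for SRSF3, −0.48 to 0.26 for SRSF5 and −3.71 to −2.34 for NXF1. Beyond the stop codon it ranged from −0.13 to 0.13 for SRSF3, −0.83 to 0.21 for SRSF5 and −3.31 to −1.93 for NXF1, which was called without SRSF7 replicate 2 (−2.61). The coding sequence ranged from −0.25 to 0.12 for SRSF3, −0.047 to 0.27 for SRSF5 and −5.20 to −4.64 for NXF1. The share beyond the stop codon ranged from −6.01 to 1.77 points for SRSF3 and from 20.5 to 24.6 points for SRSF2 (exact permutation, adjusted p 0.00319 to 0.0392).

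Replicate numbers did not pair the samples. Same-numbered libraries had a mean correlation of deviations of 0.00865 over 91 pairs, and 8 of 31 correlated best with their own number. With the replicate block the NXF1 level was −2.70 (limma adjusted p = 0.0451) and no call on Srsf2 changed. Planned count-model tests were not run, because the files list thresholded positions. The thresholding limits what low values can show, since a library with few listed tags lists few positions.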
